A study of Homo sapiens with 2 samples.

Results

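FEV and the genes of the serotonin pathway, with a few partners typical of enterochromaffin cells, were followed across the cell types of stem cell-derived islet clusters. They are 10 of the 33694 genes counted, found by symbol: FEV, LMX1A, TPH1, TPH2, DDC, SLC18A1, SLC18A2, SLC6A4, TAC1 and TRPA1. The genes were chosen by name, with their CPM levels over the cell types of these libraries already known from earlier results, so levels and class differences are given as a description, without a test. The cells were enhanced beta clusters (eBCs) made from iSOX9KO cells, a single clone of the INS-GFP MEL-1 human embryonic stem cell line. All of the cells, in both conditions, carry, in the AAVS1 locus, guides that target SOX9 and a Cas9 that doxycycline (DOX) induces, together with a GFP reporter in the insulin gene. One condition received no DOX and the other DOX at 2 ug/ml from day 12. By the methods, sorted live cells with high GFP were reaggregated into eBCs, so the share of each cell type partly reflects that gate. Each condition was sequenced as 1 10X Genomics library, so there is no spread between replicates, and all intervals are 95% intervals that cover counting error only.

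Serotonin is made from tryptophan by a tryptophan hydroxylase, TPH1 outside the brain and TPH2 in serotonergic neurons, followed by the aromatic amino acid decarboxylase DDC. Vesicular monoamine transporters, SLC18A1 (VMAT1) and SLC18A2 (VMAT2), load it into granules, and SLC6A4 takes it up again from outside the cell. FEV, an ETS family factor, drives this program in serotonergic neurons, and LMX1A is a LIM homeodomain factor of enterochromaffin cells, the serotonin-producing endocrine cells of the gut. TAC1 encodes the precursor of substance P, and TRPA1 an irritant-sensing cation channel, both known from enterochromaffin cells. Pancreatic endocrine progenitors and beta cells can express parts of the same pathway.

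The promoters of FEV, TPH1 and TAC1 are shown first, since these genes had their highest level in the same cells and their promoters share a short motif, and that of TPH2 is shown as the paralog that was near 0 there. Each stretch covers 240 bases, from 250 to 11 bases before the annotated start, 5′ to 3′ on the strand of the gene, from RefSeq on GRCh38.p14. Capitals mark TAATTA, a homeodomain core that reads the same on both strands.
FEV, chr2:218985195-218985434, minus strand: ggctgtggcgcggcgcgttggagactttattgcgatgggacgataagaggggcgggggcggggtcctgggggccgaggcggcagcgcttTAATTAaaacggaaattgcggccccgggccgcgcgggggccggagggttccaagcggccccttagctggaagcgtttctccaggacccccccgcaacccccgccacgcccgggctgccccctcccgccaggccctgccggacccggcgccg
TPH1, chr11:18046280-18046519, minus strand: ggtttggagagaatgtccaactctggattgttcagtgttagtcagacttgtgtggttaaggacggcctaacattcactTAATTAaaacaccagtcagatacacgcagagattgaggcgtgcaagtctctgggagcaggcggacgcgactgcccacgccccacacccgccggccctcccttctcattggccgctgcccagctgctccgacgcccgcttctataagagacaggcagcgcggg
TAC1, chr7:97731836-97732075, plus strand: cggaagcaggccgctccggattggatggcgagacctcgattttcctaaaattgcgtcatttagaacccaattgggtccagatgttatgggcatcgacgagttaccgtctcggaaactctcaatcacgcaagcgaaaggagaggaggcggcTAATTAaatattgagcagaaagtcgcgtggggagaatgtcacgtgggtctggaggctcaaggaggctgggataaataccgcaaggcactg
TPH2, chr12:71938595-71938834, plus strand: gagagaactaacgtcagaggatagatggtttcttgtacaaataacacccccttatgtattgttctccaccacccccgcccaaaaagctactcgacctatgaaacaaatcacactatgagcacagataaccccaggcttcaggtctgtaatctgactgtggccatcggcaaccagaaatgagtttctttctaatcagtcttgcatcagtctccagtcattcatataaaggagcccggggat
The motif begins at -161 in FEV, at -172 in TPH1 and at -100 in TAC1, counted from the start site. It was picked after the sequences had been seen. Of the 8 genes whose promoters were searched, 3 held it, and LMX1A, TPH2, DDC, SLC18A2 and SLC6A4 did not. TAATTA occurred in 4.29% of all 35116 promoter windows of this length. The other motifs searched on both strands were GGAA, the ETS core, present in 92.0% of all windows, the E-box CAGATG in 11.8% and the TATA box TATAAA in 10.6%. These matches are letters in a window and say nothing of a factor bound there. The promoters of SLC18A1 and TRPA1 were not searched, and these genes are named only.

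By GENCODE 44 on GRCh38, FEV (ENSG00000163497) lies on the minus strand of chromosome 2 from 218981087 to 218985184, and LMX1A (ENSG00000162761) on the minus strand of chromosome 1 from 165201867 to 165356715. TPH1 (ENSG00000129167) spans 18017555 to 18046269 of chromosome 11 on the minus strand, TPH2 (ENSG00000139287) 71938845 to 72186618 of chromosome 12 on the plus strand, and DDC (ENSG00000132437) 50458436 to 50565405 of chromosome 7 on the minus strand. SLC18A1 (ENSG00000036565) and TRPA1 (ENSG00000104321) are both on the minus strand of chromosome 8. SLC18A2 (ENSG00000165646) is on the plus strand of chromosome 10 from 117241093 to 117279430, SLC6A4 (ENSG00000108576) on the minus strand of chromosome 17 from 30194319 to 30236002, and TAC1 (ENSG00000006128) on the plus strand of chromosome 7 from 97732084 to 97740472.

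Among the libraries, the no DOX-labelled library held 30288 barcodes with a median of 15991 unique molecular identifiers (UMIs), and the DOX-labelled library 31817 with a median of 14431. After removal of shallow barcodes and of doublets, 21808 and 23118 cells were kept. The targeted gene SOX9 was not lower in the DOX-labelled library, at 3.78 UMIs per 1000000 UMIs (CPM) over all cells against 3.0, and in the SOX9-positive duct-like cells at 283 CPM (264 to 302) against 254 (234 to 274). The paper reported less SOX9 protein in DOX-treated iSOX9KO cells by western blot and staining, which UMI counts do not measure. It also reported, by its own clustering, more alpha-like and delta-like cells and more beta cell progenitors with DOX. By flow cytometry it saw no rise in glucagon-expressing cells. Here the shares of alpha-like and delta-like cells were lower in the DOX-labelled library, at 18.2% against 23.4% and 8.38% against 12.1%. That of beta cell progenitor-like cells was 17.0% against 16.8%. The cause was not tested. Because the level of the targeted gene does not check the labels in the direction of a knockout, the libraries are named by label throughout. The libraries shared 369 barcodes, 141 of them kept in both. Of the 3671 and 3925 progenitor-like cells, 23 and 22 carried such a barcode.

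Cells were clustered without the 10 genes, and clusters were named from marker genes. The beta cell progenitor-like class held 7596 cells. All 14 of its markers were at least 2-fold above the other endocrine classes, the beta-like, alpha-like and delta-like cells together, with log2 ratios of 4.89 to 7.09. These markers were derived from the same libraries, and the class was built on such genes, so this is no independent check. The paper described its progenitor-like population as one with FEV. A high FEV level in a class named by markers of that population is therefore no independent result. The other classes were 815 proliferating progenitor-like, 13926 beta-like, 9312 alpha-like, 4575 delta-like and 330 duct-like cells. A cluster of 5994 cells led by L3MBTL4 and one of 2378 cells with a median of 70.1% mitochondrial UMIs did not meet the rule for a name and stayed unnamed. In a finer clustering 48.3% of the L3MBTL4 cluster fell with progenitor-like cells and 51.3% with beta-like cells. As clusters of the sorted cells were summed as a whole, a lower level can mean fewer expressing cells or fewer UMIs per cell, and shares of cells are therefore given beside the levels.

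Most of the 10 genes had their highest level in the beta cell progenitor-like class, which held 16.9% of cells and 12.8% of UMIs. It held 63.1% of the TPH1 UMIs, 57.5% of the FEV UMIs and 92.5% of the TAC1 UMIs. For LMX1A, DDC, SLC18A1, SLC18A2 and TRPA1 its share lay between 50.7% and 65.6%. The exceptions were SLC6A4, with 2.36% of its UMIs there, and TPH2, with 4 of 227 UMIs. These shares depend on where the class is cut, and the class was larger in each other clustering. The L3MBTL4 cluster held a further 26.6% of the TPH1 UMIs and 16.2% of the FEV UMIs, but 1.53% of the TAC1 UMIs. Its portion that fell with progenitor-like cells had 40117 of 169413 TPH1 UMIs (labelled no DOX) and 32817 of 140817 (labelled DOX). Of 9 genes with at least 5 CPM on one side, 8 were at least 2-fold higher in progenitor-like cells than in the other endocrine classes and 1, SLC6A4, was at least 2-fold lower. SLC18A1, TAC1 and TRPA1 passed the minimum only through the progenitor-like class and SLC6A4 only through the others, which favours a call in that direction. By the same rule 29.9% of all 11186 genes tested were higher and 5.38% lower. All genes together were shifted, with a median log2 ratio of 0.68, and when INS, GCG and SST were left out of the totals the median was 0.37 and the split was 16.8% higher and 7.14% lower. Centred on the median, 8.96% were higher and 10.5% lower, and the count for these genes was again 8. The log2 ratios of the 8 genes, 3.58 to 7.21, lay above each of these medians.

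**Figure D1:**
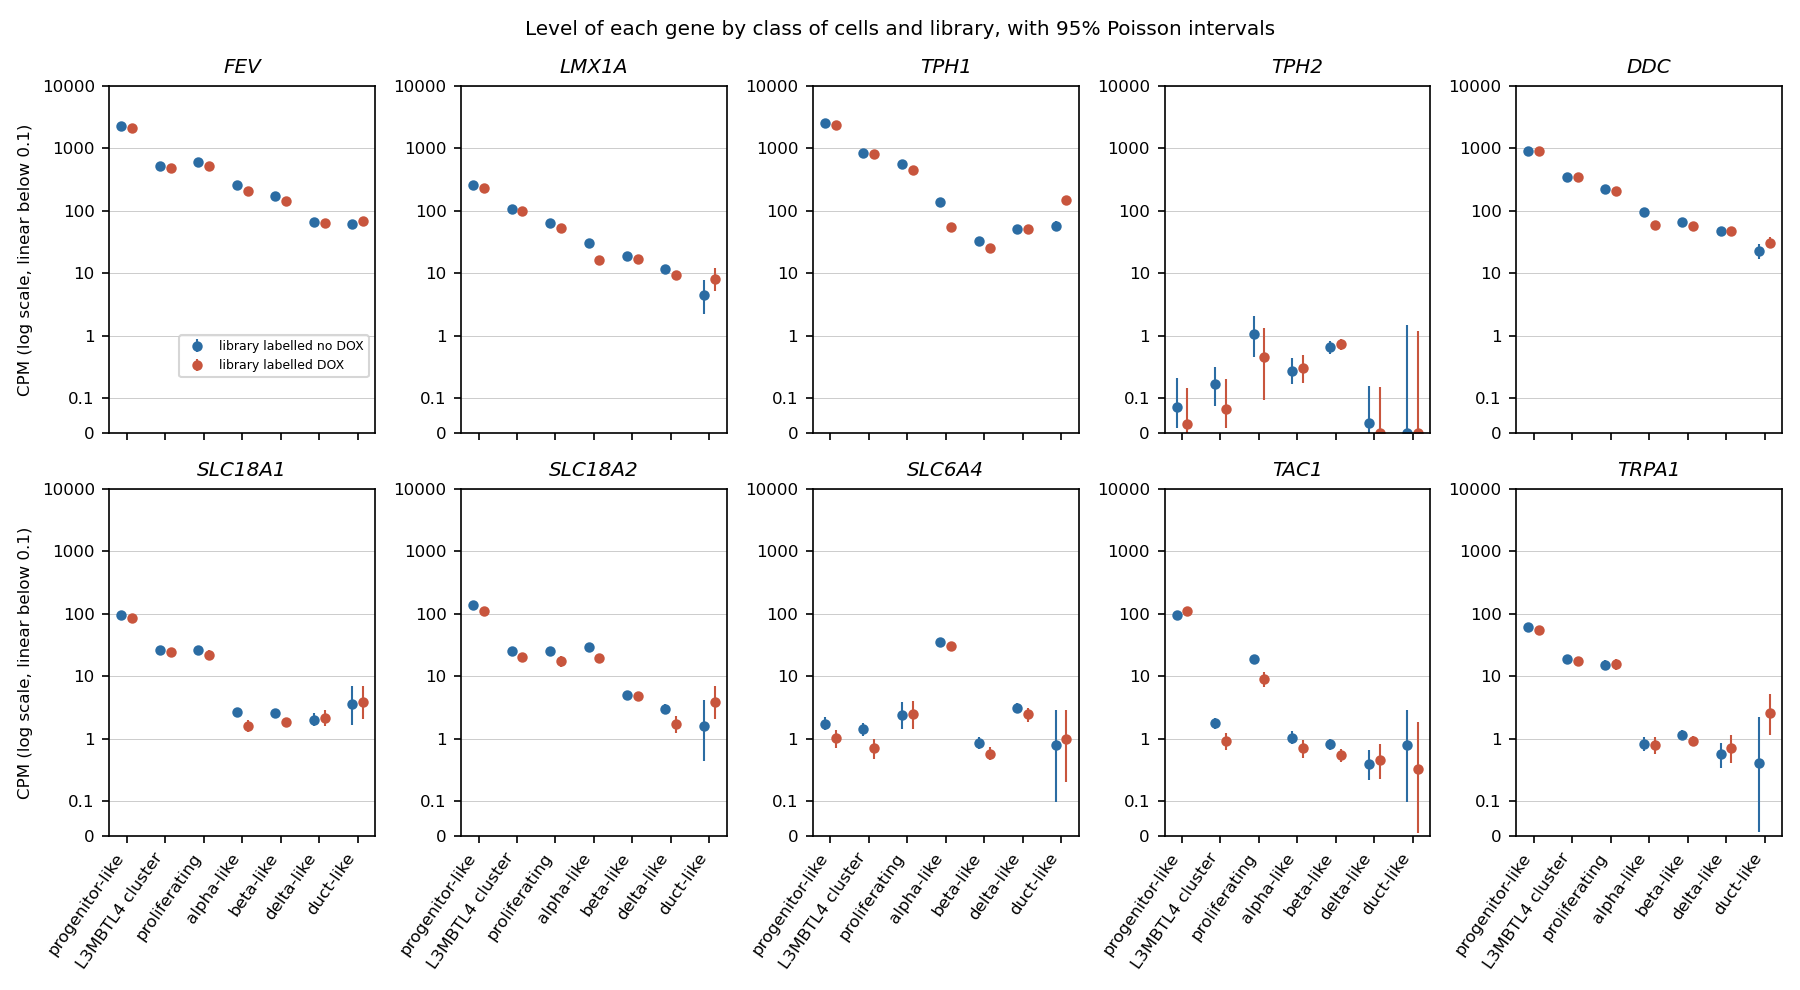
Level of each of the 10 genes in CPM (log axis, linear below 0.1) in each class but the mitochondrial cluster, with 1 point per library and exact Poisson 95% intervals as bars. The progenitor-like class had the highest level for 8 genes, while SLC6A4 was highest in alpha-like cells and TPH2 stayed near 0 in every class.

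Of the transcription factors, FEV had a level of 2273 CPM (progenitor-like cells, library labelled no DOX) and 2105 CPM (labelled DOX). In the other endocrine classes together it had 185 and 149 CPM, and the log2 ratio over both libraries was 3.71 (3.70 to 3.73). FEV was thus not absent outside the class. Its order over the classes ran from progenitor-like cells to proliferating progenitor-like cells (614 and 518 CPM) and the L3MBTL4 cluster (520 and 480 CPM), whose ranges over the libraries overlapped. Next came the mitochondrial cluster and alpha-like cells (262 and 208 CPM), which overlapped as well, then beta-like cells (175 and 141 CPM), and last delta-like (67.1 and 63.4 CPM) and duct-like cells (61.9 and 67.8 CPM), which did not differ beyond their range. LMX1A followed a similar order, at 259 and 235 CPM in progenitor-like cells against 21.5 and 15.9 CPM in the other endocrine classes, a log2 ratio of 3.73 (3.69 to 3.76). For LMX1A the L3MBTL4 cluster, at 108 and 101 CPM, ranked above the proliferating cells, at 63.9 and 53.9 CPM, and the ranges of alpha-like and beta-like cells overlapped.

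TPH1, the first enzyme of serotonin synthesis, had 2518 and 2407 CPM in progenitor-like cells and 71.0 and 36.0 CPM in the other endocrine classes, a log2 ratio of 5.53 (5.51 to 5.55). The L3MBTL4 cluster was next with 859 and 826 CPM, ahead of the proliferating cells with 573 and 459 CPM. Below them the order was the mitochondrial cluster, then duct-like and alpha-like cells with overlapping ranges, delta-like and beta-like cells. DDC, which makes serotonin from the product of TPH1, had the same order at its top, with 912 and 906 CPM in progenitor-like cells and 344 and 345 CPM in the L3MBTL4 cluster. Its log2 ratio over the other endocrine classes was 3.81 (3.79 to 3.83). The neuronal paralog TPH2 was nearly undetected, with 3 and 1 UMIs over all progenitor-like cells. Of its 227 UMIs over all cells, 164 or 72.2% were in beta-like cells. Its largest level in the finer clustering, 2.24 and 1.68 CPM from 39 and 49 UMIs, was in a beta-like cluster led by MFAP4, MXRA8 and ZG16B.

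Both vesicular transporters were highest in the progenitor-like class. SLC18A1 had 97.3 and 84.2 CPM there and 2.50 and 1.83 CPM in the other endocrine classes, a log2 ratio of 5.39 (5.29 to 5.49), and alpha-like, beta-like and delta-like cells could not be ordered. SLC18A2 had 137 and 111 CPM against 12.5 and 8.30 CPM, a log2 ratio of 3.58 (3.53 to 3.63). Below the class came alpha-like cells, at 28.8 and 19.9 CPM, where the range overlapped those of the L3MBTL4 cluster and the proliferating cells.

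SLC6A4, the serotonin reuptake transporter, had the opposite distribution. Alpha-like cells held 4050 of its 4663 UMIs, or 86.9%, with 35.7 and 30.3 CPM. In progenitor-like cells the level was 1.74 and 1.01 CPM, overlapping the range of the L3MBTL4 cluster. The progenitor-like class was below the other endocrine classes by a log2 ratio of -2.93 (-3.21 to -2.65). Of these, delta-like cells had 3.12 and 2.44 CPM and beta-like cells 0.859 and 0.578 CPM, so most of the difference came from alpha-like cells.

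TAC1 and TRPA1, both genes of sensory and neuroendocrine signalling, had the highest ratios over both libraries together, although in the DOX-labelled library TPH1, with 6.06 (6.03 to 6.10), lay at the level of TRPA1, with 6.0 (5.78 to 6.22). TAC1 had 94.2 and 112 CPM in progenitor-like cells and 0.813 and 0.571 CPM in the other endocrine classes, a log2 ratio of 7.21 (7.04 to 7.39). Proliferating progenitor-like cells followed with 18.6 and 8.90 CPM. The L3MBTL4 cluster, second for TPH1, DDC and TRPA1, had only 1.76 and 0.911 CPM of TAC1, and its range overlapped that of alpha-like cells. TRPA1 had 61.8 and 55.1 CPM in progenitor-like cells, 19.1 and 17.8 CPM in the L3MBTL4 cluster and 0.938 and 0.863 CPM in the other endocrine classes, a log2 ratio of 6.02 (5.87 to 6.18).

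The L3MBTL4 cluster was a mixture for these genes. Its cells that fell with progenitor-like cells in the finer clustering had 963 and 995 CPM of FEV, 1637 and 1773 CPM of TPH1 and 619 and 663 CPM of DDC. Those that fell with beta-like cells had 151 and 104 CPM of FEV, 209 and 131 CPM of TPH1 and 115 and 112 CPM of DDC. The progenitor-like portion had an INS level of 122325 and 110036 CPM, above the 36543 CPM of the progenitor-like class. Summed over its cells it therefore had FEV, TPH1 and DDC together with more insulin RNA than that class, and 2.57 and 1.30 CPM of TAC1. Its INS level lay below those of alpha-like (134972 CPM), delta-like (135384 CPM) and beta-like cells (203531 CPM).

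In single cells some of the genes were detected in nearly every progenitor-like cell and others in a portion of them. A gene of lower level is detected in fewer cells by counting alone, so these shares do not by themselves separate kinds of cells. Each cell was thinned to 5000 UMIs, which kept 7322 of the 7596 progenitor-like cells, and 323 of the duct-like cells served as the background of free RNA. The median depth before thinning was 9240 UMIs in progenitor-like and 14500.5 in duct-like cells. TPH1 had a UMI in 99.6% of progenitor-like cells against 22.9% of duct-like cells, FEV in all but 3 of 7322 against 17.6%, and DDC in 97.8% against 10.2%. LMX1A was found in 67.3%, against 2.48% of duct-like cells. Without thinning these shares were 99.9% for TPH1, 99.5% for DDC and 83.2% for LMX1A.

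The transporters, TAC1 and TRPA1 were found in a minority of cells at this depth. SLC18A1 had a UMI in 33.6% and SLC18A2 in 33.9% of progenitor-like cells, against 1.24% and 0.619% of duct-like cells, and 52.6% and 47.7% without thinning. TRPA1 was found in 22.1%, against 0.929% of duct-like cells, and in 36.2% without thinning. TAC1 was found in 17.1% of cells, against 0 of 323 duct-like cells, which allows a share of up to 0.929%, and in 22.1% without thinning. SLC6A4, at 0.574%, and TPH2, at 0.0410%, were not above the duct-like shares of 0.310% and 0 of 323 beyond counting error. In beta-like cells FEV was found in 39.0% and DDC in 22.7%, above the duct-like shares. TPH1 was found in 10.2% of beta-like cells, below the duct-like shares of 16.4% (labelled no DOX) and 28.2% (labelled DOX). For TPH1 the duct-like cells are an uncertain measure of free RNA, since their level differed between the libraries, and the beta-like share is not read as expression. Alpha-like cells had FEV in 62.3%, DDC in 26.8%, SLC6A4 in 14.9% and SLC18A2 in 10.7% of cells.

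Whether a single cell held the whole path was asked next. TPH1 and DDC were found together in 97.4% of progenitor-like cells, and TPH1, DDC and at least 1 vesicular transporter in 54.0% (52.9% to 55.2%). By library the latter share was 57.0% (labelled no DOX) and 51.3% (labelled DOX). With SLC6A4 added, 27 cells of 7322 or 0.369% remained. The same synthesis and loading set was found in 17.3% of the L3MBTL4 cluster, 13.8% of proliferating progenitor-like, 2.27% of alpha-like, 0.375% of delta-like, 0.225% of beta-like and 0.310% of duct-like cells. In progenitor-like cells most often 5 (35.2% of cells) or 4 (33.1%) of the 8 high genes were found, no cell had fewer than 2, and 21 cells had all 8.

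**Figure D2:**
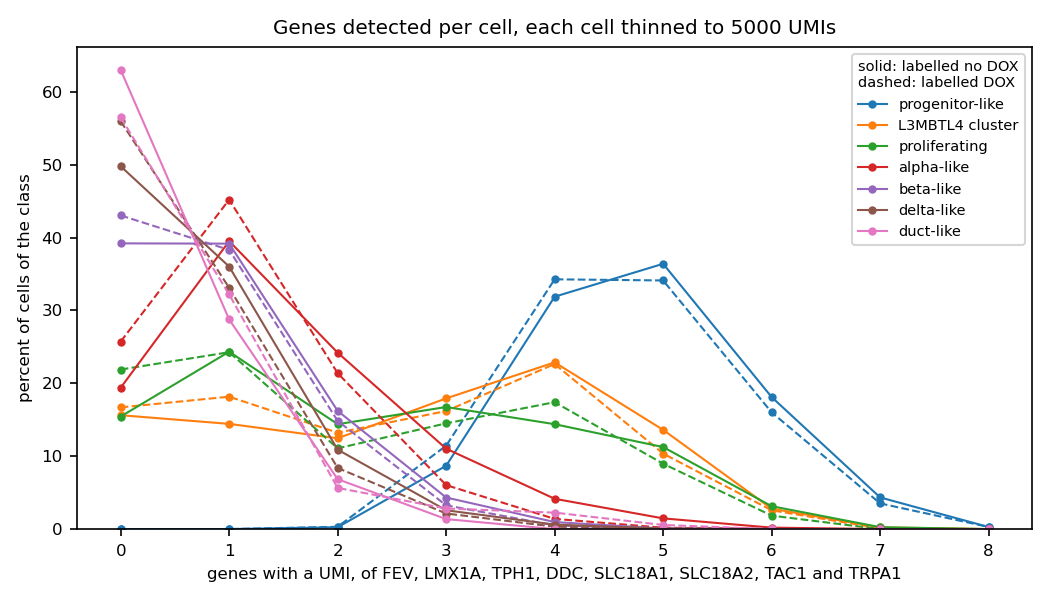
Percent of cells by how many of the 8 genes high in progenitor-like cells had a UMI, after thinning each cell to 5000 UMIs, with 1 line per class and library. Over both libraries progenitor-like cells centre on 4 and 5 genes (33.1% and 35.2%), while the L3MBTL4 cluster is spread, with 16.1% of its cells at 0 and 22.8% at 4.

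The evenness over progenitor-like cells differed among the genes. After thinning, FEV and TPH1 each had a median of 11 UMIs per cell, DDC of 4 and LMX1A of 1. The tenth of cells with the most UMIs held 18.9% and 19.8% of the FEV UMIs and 21.3% and 21.6% of the TPH1 UMIs. For TAC1 it held 89.1% and 84.5%, so that a small set of cells carried most TAC1. SLC18A2 (52.3% and 58.0%) and TRPA1 (58.7% and 60.0%) lay between them, although at 1 UMI or less per cell counting alone makes such shares high. LMX1A was found less often in the 1254 cells with TAC1, at 56.1%, than in those without, at 69.6%. SLC18A2 was found in 40.1% of cells with TAC1 and 32.7% without. SLC18A1 and SLC18A2 did not exclude each other, since SLC18A2 was found in 36.4% of cells with SLC18A1 and in 32.7% without it.

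The finer clustering had 2 progenitor-like clusters. The smaller, of 1220 cells led by CA2, PHOX2A and CA3, lay wholly within the progenitor-like class. The larger, of 9219 cells led by ADGRG4, MGLL and ZBTB7C, held 6315 cells of the class and 2898 cells of the L3MBTL4 cluster, which had more INS and nearly no TAC1. The clusters were therefore compared within the progenitor-like class alone, 1220 against 6315 cells, and this restriction was chosen after seeing the data.

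TAC1 was at 440 and 358 CPM in the smaller cluster and at 51.6 and 60.8 CPM in the class cells of the larger one, a log2 ratio of 3.09 (3.0 to 3.18) by the no DOX-labelled library and 2.56 (2.47 to 2.64) by the DOX-labelled. LMX1A was lower in the smaller cluster, with log2 ratios of -1.51 and -1.37, and so was SLC18A1, with -1.18 and -0.91. Over both libraries 1 of the 8 high genes, TAC1, was at least 2-fold higher, where 3.14% of 11123 genes were, and 2, LMX1A (-1.44) and SLC18A1 (-1.05), were at least 2-fold lower, where 5.47% were. TRPA1 was higher by less than 2-fold over both libraries, with 0.89 (0.79 to 0.99), and by 1.14 and 0.71 in the single libraries. FEV (-0.26), TPH1 (-0.18), DDC (-0.16) and SLC18A2 (-0.19) differed little. TAC1 and LMX1A thus lay on opposite sides of the same split.

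Against the whole larger cluster, with its cells of the L3MBTL4 cluster, TAC1 had log2 ratios of 3.80 and 3.20 and TRPA1 of 1.36 and 0.88. Over both libraries TAC1 and TRPA1 (1.09) were then past 2-fold higher, where 3.9% of 11088 genes were, and LMX1A (-1.23) past 2-fold lower, where 4.97% were. The 2-fold calls of TRPA1 and SLC18A1 thus depend on which cells of the larger cluster are taken. SLC18A2 (0.28), FEV (0.10), TPH1 (0.01) and DDC (0.02) were above 0 over both libraries against the whole cluster and below 0 within the class, so no direction is read for these 4 genes. In other clusterings TAC1 ranged from 2.39 to 3.42, TRPA1 from 0.79 to 1.06 and LMX1A from -1.66 to -1.10.

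The same contrast was seen in shares of cells. Within the class TAC1 was found in 45.3% and 43.9% of the smaller cluster and in 11.2% and 12.3% of the larger. LMX1A was found in 35.8% and 36.0% against 74.5% and 72.3%. INS was also lower in the smaller cluster, with log2 ratios of -1.05 and -0.91 within the class and of -1.89 and -1.70 against the whole larger cluster. The levels of the 8 genes were therefore also given by INS.

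**Figure D3:**
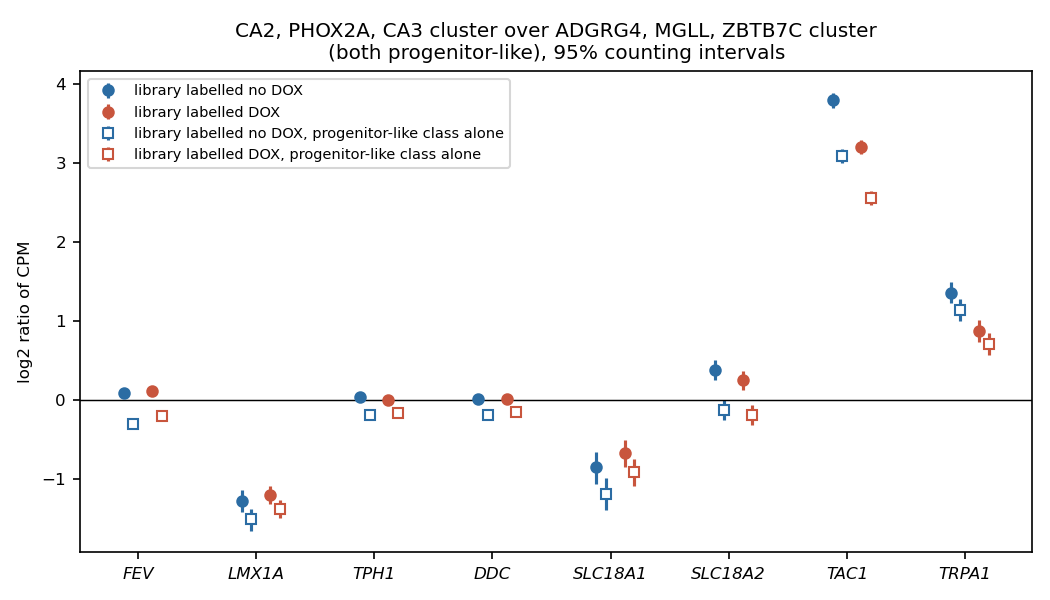
Log2 ratio of CPM in the smaller over the larger progenitor-like cluster of the finer clustering for the 8 high genes, per library, with exact conditional binomial 95% intervals as bars. Filled circles take the whole larger cluster and open squares its cells of the progenitor-like class alone, where TAC1 (3.09 and 2.56) lies farthest above 0 and LMX1A (-1.51 and -1.37) farthest below it.

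Progenitor-like cells of each library were placed in 4 groups of equal size by their INS share, with medians from 1.14% to 6.69% of UMIs (labelled no DOX) and from 1.12% to 6.12% (labelled DOX), and levels were computed without INS. From the lowest to the highest INS group, TAC1 had 199, 96.2, 78.5 and 31.9 CPM in the no DOX-labelled library. In the DOX-labelled library it had 224, 140, 69.7 and 38.5 CPM, so TAC1 was lower in each step of INS in both. SLC18A2 was also lowest in the highest INS group, at 106 CPM against 167 in the lowest (labelled no DOX) and 91.5 against 125 (labelled DOX). FEV and TPH1 moved little, FEV between 2124 and 2539 CPM and TPH1 between 2385 and 2873 CPM in the no DOX-labelled library, both lowest in the highest INS group. LMX1A ran the other way at the low end, with 232 CPM in the lowest INS group and 279 to 282 CPM in the others of that library.

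**Figure D4:**
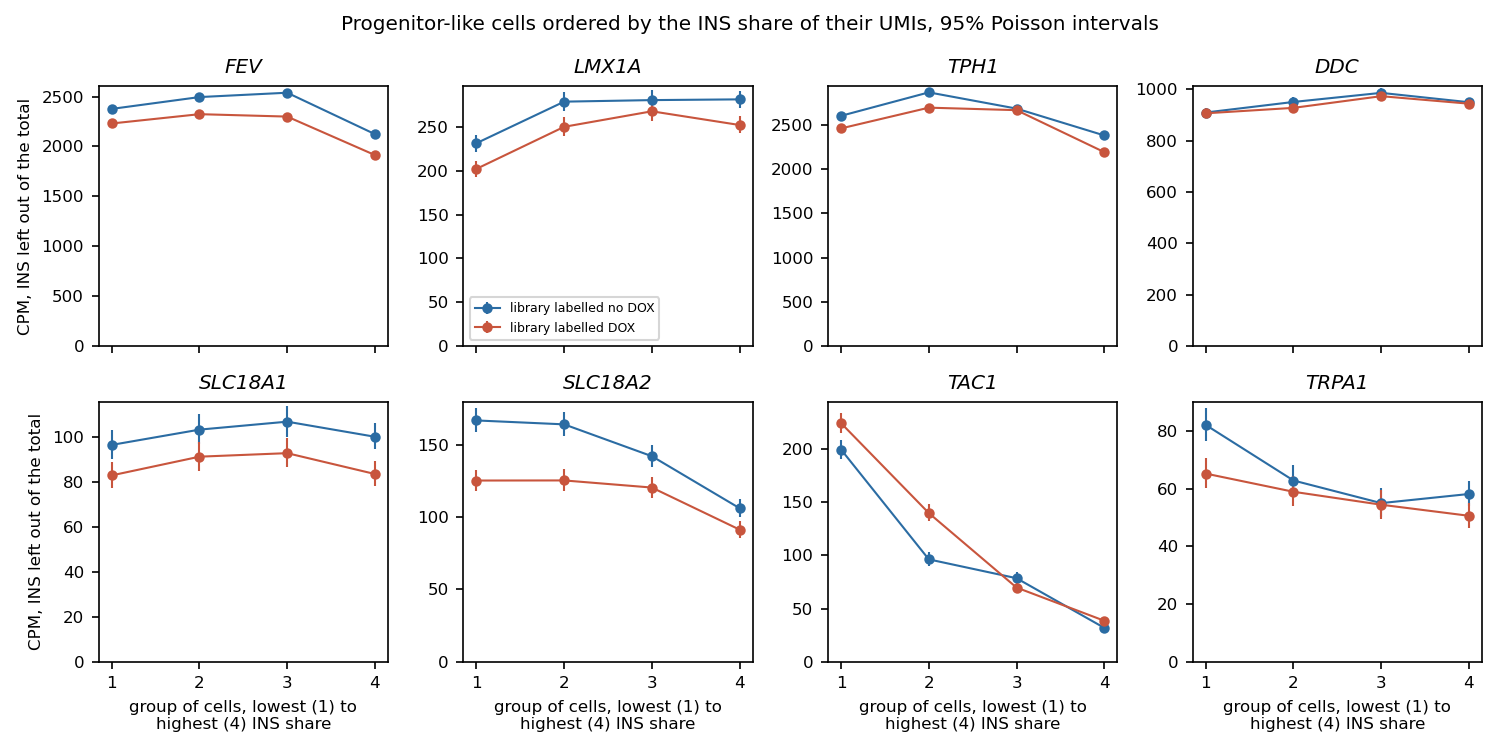
Level in CPM without INS (linear axis from 0) of the 8 high genes in 4 groups of progenitor-like cells ordered by their share of INS, with 1 line per library and exact Poisson 95% intervals as bars. TAC1 goes from 199 to 31.9 CPM (labelled no DOX) and from 224 to 38.5 CPM (labelled DOX), while FEV, TPH1 and DDC stay nearly level.

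The libraries differed little in these genes within progenitor-like cells. None of the 8 genes tested was 1.5-fold apart, where 0.402% of 10934 genes were 1.5-fold higher in the DOX-labelled library and 0.366% lower. The log2 ratio of the DOX-labelled over the no DOX-labelled library was -0.11 (-0.12 to -0.10) for FEV, -0.07 (-0.08 to -0.05) for TPH1 and -0.01 (-0.03 to 0.01) for DDC. LMX1A (-0.14), TRPA1 (-0.16) and SLC18A1 (-0.21) lay slightly lower, and SLC18A2 was lowest with -0.31 (-0.37 to -0.25). TAC1 alone was higher, with 0.24 (0.18 to 0.31), but not in each cluster of the class. It was lower in the smaller, TAC1-rich cluster, with -0.30 (-0.38 to -0.21), and higher in the class cells of the larger one, with 0.24 (0.14 to 0.33). TRPA1 was also lower in the smaller cluster, with -0.56 (-0.73 to -0.38), than in the class cells of the larger one, with -0.13 (-0.23 to -0.04). The smaller cluster held 753 cells of the DOX-labelled library and 467 of the other. With 1 library per condition these differences cannot be told apart from differences between any 2 preparations.

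In alpha-like cells several of the genes were lower in the DOX-labelled library. TPH1 had 139 CPM in the no DOX-labelled library and 55.5 CPM in the DOX-labelled library, a log2 ratio of -1.32 (-1.38 to -1.26). LMX1A, at 30.5 and 16.6 CPM, had -0.88 (-0.99 to -0.76) and DDC, at 96.6 and 58.8 CPM, -0.72 (-0.78 to -0.65). These 3 of 6 genes were 1.5-fold lower and 0 higher, where 0.53% of 10001 genes were lower and 0.41% higher. SLC18A2 (-0.54), FEV (-0.33) and SLC6A4 (-0.24) lay lower by less than 1.5-fold.

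The TPH1 of alpha-like cells came from few of them. Whether those were doublets that had not been called was not tested, which bears on the levels and ratios of TPH1, LMX1A and DDC. In the no DOX-labelled library DDC was found in 52.4% of alpha-like cells with TPH1 and 24.8% without, and LMX1A in 26.7% and 10.9%. At least 5 DDC UMIs after thinning were found in 93 cells (labelled no DOX) and 16 (labelled DOX). With doublets kept the log2 ratio of DDC was -0.56, less than 1.5-fold. The tenth of cells with the most TPH1 held 88.1% and 87.0% of its UMIs. At least 5 UMIs after thinning were found in 191 of 4494 cells (4.25%) of the no DOX-labelled library and in 47 of 3711 (1.27%) of the DOX-labelled library, and any UMI in 21.0% and 14.3%. The share with any UMI lay near or below those of duct-like cells, 16.4% and 28.2%, and is not read as expression. One finer cluster was shallow (median 2767.5 UMIs) and mixed: of its 1340 cells 937 were alpha-like, with 245 beta-like and 156 delta-like cells, and the log2 ratio of TPH1 over that mixture was 0.05 (-0.41 to 0.50). Among alpha-like cells DDC was found in 43.4% of cells with SLC6A4 and 28.2% without (labelled no DOX), and in 32.7% and 20.5% (labelled DOX).

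For the remaining classes, counts of genes 1.5-fold apart are set beside the share of all genes, which also differed between classes. Of 4 genes tested in beta-like cells 0 were, where 0.298% of all genes were higher and 0.606% lower, and of 4 in delta-like cells 0, where 0.2% were higher and 0.34% lower. In the L3MBTL4 cluster 0 of 7 were, where 0.23% were higher and 0.48% lower. These counts average over unlike cells. The finer beta-like cluster led by ZFP42, C16orf74 and ASIC1 held most of the beta-like portion of the L3MBTL4 cluster. There TPH1 had a log2 ratio of -0.87 (-0.93 to -0.82) and SLC18A2 of -0.67 (-0.88 to -0.47), where 0.882% of all genes were 1.5-fold lower. FEV (-0.57), LMX1A (-0.40) and DDC (-0.17) lay lower by less than 1.5-fold. The mix of cells differed between the libraries, with 2155 and 2475 cells in this cluster and 1599 and 1478 in that portion. SLC18A2 was higher, with 0.49 (0.16 to 0.83), in the beta-like cluster led by MFAP4. Within the beta-like portion of the L3MBTL4 cluster alone TPH1 was at 209 and 131 CPM. By contrast, in the progenitor-like portion of the L3MBTL4 cluster TPH1 was at 1637 and 1773 CPM. In proliferating cells TAC1 was lower, with a log2 ratio of -1.06 (-1.53 to -0.61) from 139 and 58 UMIs, as 1 of 8 genes, where 1.71% of all genes were lower. In duct-like cells 2 of 4 genes were higher, TPH1 with 1.38 (1.10 to 1.66) and LMX1A with 0.89 (-0.19 to 2.06), where 8.09% of all genes were higher. In the mitochondrial cluster 2 of 8 were higher, TAC1 with 1.97 (0.83 to 3.30) from 8 and 33 UMIs and TRPA1 with 1.66 (0.29 to 3.27) from 6 and 20, where 12.4% of all genes were higher. SLC18A2 was lower there, with -0.98 (-1.66 to -0.32), where 3.21% were lower. These values rest on few UMIs. The duct-like value of TPH1 rests on 143 and 456 UMIs, of which a single cell gave 25.2% and 10.7%. That of LMX1A rests on 11 and 25 UMIs, of which a single cell gave 36.4% and 16%. Scaled by INS in duct-like over all cells, the TPH1 level of all cells came to 67.4 CPM (labelled no DOX) and 48.1 CPM (labelled DOX). Duct-like cells had 57.5 (48.5 to 67.7) and 149 (136 to 164) CPM of TPH1. The part of free RNA in the values of these classes was not tested.

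**Figure D5:**
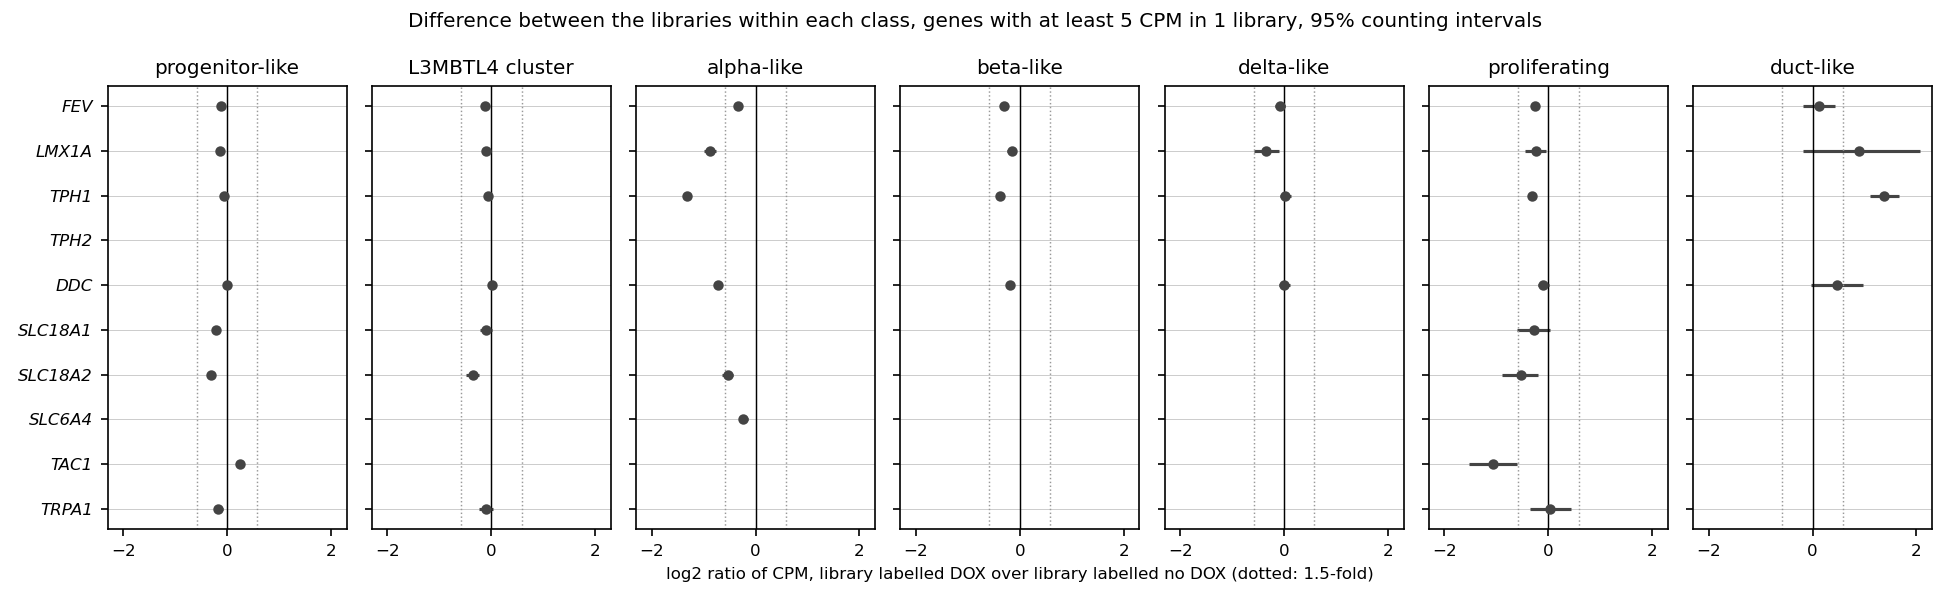
Log2 ratio of CPM in the DOX-labelled over the no DOX-labelled library for each class and each gene with at least 5 CPM in 1 library, with exact conditional binomial 95% intervals as bars and dotted lines at 1.5-fold. In progenitor-like cells every gene tested lies within 1.5-fold, and in alpha-like cells TPH1 (-1.32), LMX1A (-0.88) and DDC (-0.72) lie below it.

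Genes around the pathway were described by lists, for progenitor-like cells over the other endocrine classes in each library, where the median log2 ratio of all genes tested was 0.69 (labelled no DOX) and 0.67 (labelled DOX). Of 14 other enterochromaffin genes listed, 11 (labelled no DOX) and 10 (labelled DOX) reached 5 CPM in at least 1 group of cells. The rest were below it in both groups and were not tested. Of those tested, 9 of 11 were at least 2-fold higher and 1 lower in the no DOX-labelled library. In the DOX-labelled library 8 of 10 were higher and 1 lower, and the medians were 2.45 and 2.28. CHGA, a granule protein of endocrine cells, had 31344 and 30526 CPM and log2 ratios of 1.36 and 1.44. CXCL14, a chemokine, had 2.89 and 2.74, the homeodomain factor MNX1 1.96 and 1.85, and the adrenergic receptor ADRA2A 2.45 and 2.59. By the same rule 29.9% of all genes were higher and 5.38% lower. CES1 (tested in the no DOX-labelled library alone), CDX2, SLC38A11 and, in the DOX-labelled library, GUCY2C passed the minimum only through the progenitor-like class, which favours a higher call, and SCT, the secretin precursor, was the lower gene.

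TPH1 needs tetrahydrobiopterin, and of 9 genes that supply it or fold the hydroxylases 3 (labelled no DOX) and 4 (labelled DOX) were 2-fold higher and 0 lower, with medians of 0.87 in both. This is near the 29.9% of all genes that were 2-fold higher. DNAJC12, a co-chaperone of the aromatic amino acid hydroxylases, had 807 and 892 CPM and log2 ratios of 3.0 and 3.05. QDPR, which recycles the cofactor, had 1.17 and 1.23, and GCHFR, a regulator of its first enzyme, 1.15 and 1.17. Of 4 genes of monoamine breakdown tested, ALDH2 was higher, with 1.06 and 1.09. MAOA, which degrades serotonin, was lower with -1.08 and -1.29 (3.67 and 3.06 CPM in progenitor-like cells), and ALDH1A1 with -3.30 and -3.43, where 5.38% of all genes were lower. MAOA passed the minimum only through the other endocrine classes. None of the 17 serotonin receptor genes reached 5 CPM in either group of cells.

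Of other monoamine enzymes and carriers, 2 of 8 tested were higher and 2 lower (labelled no DOX), and 3 of 7 higher and 1 lower (labelled DOX), with medians of 0.54 and 0.62, below those of all genes, of which 29.9% were higher and 5.38% lower. SLC6A2, the noradrenaline transporter, was lower, with -3.53 and -3.36. In the no DOX-labelled library so was TH, the tyrosine hydroxylase, with -1.42. Both passed the minimum only through the other endocrine classes and could be called in no other direction. SLC29A4, the plasma membrane monoamine transporter, had 303 and 266 CPM and log2 ratios of 1.20 and 1.06. SLC7A5, a carrier of large neutral amino acids such as tryptophan, had 2.04 and 2.05. Of 11 factors of serotonergic or endocrine progenitor cells, 5 and 4 were higher and 2, ISL1 and PAX6, lower, with medians of 0.92 and 0.78. The higher count is near the share of all genes. INSM1 had log2 ratios of 1.53 and 1.49, NKX2-2 1.91 and 1.76 and LMX1B, the paralog of LMX1A used by serotonergic neurons, 1.88 and 1.61, with 62.0 and 61.1 CPM. Of tachykinin and TRP channel relatives, TRPC7 was higher with 5.19 and 5.14, and TRPM5 and TRPM3 were lower, out of 4 tested, too few to set against the shares of all genes. TRPC7 passed the minimum only through the progenitor-like class, and TRPM5 and TRPM3 only through the other endocrine classes. Of 10 further markers of serotonergic neurons 3 reached 5 CPM in progenitor-like cells, and EN1, EN2 and HTR1B among them were at 0. No acinar (0 of 10) or mesenchymal marker (0 of 9) did.

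The genes whose levels went most closely with FEV were found by Pearson correlation of log2(CPM + 1) over 22 points, 11 finer clusters in 2 libraries, among 11401 genes. Clusters share their library and its free RNA, so this is a description. PIP5K1B came first (0.981), followed by RP11-506F3.1 (0.949), PRODH2 (0.949), STAC (0.945), TPST2 (0.945), DDC (0.942), MGLL (0.939), C2orf72 (0.938), SLC18A2 (0.936) and SCG2 (0.933). DDC and SLC18A2 belong to the pathway, and MGLL was a marker of the progenitor-like class. Of the other genes followed here, LMX1A had 0.908 (rank 39), TAC1 0.892 (rank 63) and TRPA1 0.878 (rank 107). SLC18A1 had 0.868 (rank 132), TPH1 0.838 (rank 266) and SLC6A4 -0.0817 (rank 9521). TPH2 was below the minimum level and was not compared.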

How the data were processed

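Dissociated eBCs of the iSOX9KO line were sequenced as 1 10X Genomics library per condition, and groups were taken from the labels. The authors deposited raw UMI counts for each gene and barcode. Cell Ranger 3.0.2 stands in the file headers, and kallisto and bustools in the methods. The submitters' processing notes name GRCh38.

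Barcodes under 1000 UMIs were dropped, as were doublets that Scrublet in scanpy 1.11.5 called per library (26.6% and 26.5%). Counts were scaled to 10000 per cell, log-transformed, reduced to 50 principal components without the 10 genes described, joined with 3 neighbours per library and clustered by the Leiden algorithm (leidenalg 0.10.2) at resolution 0.2, or 0.5 for the finer clustering. Clusters were named from marker genes of the study, which come from these libraries.

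UMIs were summed per class as CPM, with exact Poisson intervals, exact conditional binomial intervals for ratios and exact Clopper-Pearson intervals for shares (scipy 1.17.1). With 1 library per condition no test was made. Genes with at least 5 CPM on one side were compared with folds of 2 between classes and 1.5 between libraries. Shares of cells used cells thinned to 5000 UMIs. Named genes were the 10 genes, those most like FEV (genes with at least 10 CPM, clusters with at least 50 cells per library), and of each list up to 4 genes past 2-fold in both libraries by level and its highest gene, and SOX9 and INS. Genes named beside these were the leading genes of clusters and lower list genes, chosen after their values were seen. The genes, lists and comparisons were chosen with earlier results of these data known. The scripts for ratios and likeness were tested on simulated data. Alternatives were other minima of UMIs, doublets kept, a mitochondrial limit, other clusterings and scalings, other thinning and, added after seeing the data, shared barcodes left out and the finer progenitor-like clusters compared within their class alone. Other tools were python 3.11.15, numpy 2.4.6, pandas 2.3.3 and matplotlib 3.10.9.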

Additional observations from a re-analysis of the deposited data

Results flagged for a closer look

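TPH1 differed in opposite directions between the libraries in 2 classes, with a log2 ratio of the DOX-labelled over the no DOX-labelled library of 1.38 in duct-like cells and -1.32 in alpha-like cells. TAC1 likewise had 0.24 in progenitor-like cells and -1.06 in proliferating progenitor-like cells. The latter value rests on 139 (labelled no DOX) and 58 (labelled DOX) UMIs, of which a single cell gave 12.2% and 27.6%. Both pairs were noted because the ratios lay on opposite sides of 0 with intervals that leave out 0. With 1 library per condition the difference between classes was not tested.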

How the results depend on the processing

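No paired analysis was possible because each condition has 1 library. Over 14 alternatives the count of genes at least 2-fold higher in progenitor-like cells was 8 in each, and that of genes 1.5-fold apart between the libraries in those cells 0 in each. The count lower in alpha-like cells was 2 to 4, and no ratio past its fold changed sign. The ratios of DDC and TPH1 between the libraries in progenitor-like cells, -0.01 and -0.07, lay near 0 and reached 0.05 and 0.01. The progenitor-like class was smaller in the reported clustering (7596 cells) than in the other clusterings (10234 to 11910 cells, and 10516 with another seed). Of the members' ratios, 103 over the other endocrine classes lay outside the counting interval of the reported value and 22 within it, and between the libraries in progenitor-like cells 62 lay outside and 50 within. TPH1 in alpha-like cells ranged from -1.50 to -0.93.

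Shares of progenitor-like cells with a UMI depend on depth. Without thinning and at 2500 UMIs they were 83.2% and 44.2% for LMX1A, 99.9% and 97.6% for TPH1, 99.5% and 88.2% for DDC, 52.6% and 19.5% for SLC18A1, 47.7% and 21.8% for SLC18A2, 1.36% and 0.384% for SLC6A4, 22.1% and 12.4% for TAC1, and 36.2% and 12.2% for TRPA1. FEV was at 98.7% with 2500 UMIs. TPH1, DDC and a vesicular transporter were found together in 72.3% without thinning and 31.6% at 2500 UMIs. Of the 10 genes most like FEV, 5 were shared with a clustering that kept the 10 pathway genes. The cause was not tested.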
